A study of Mus musculus with 38 samples.

Results

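The immediate early and stress genes described here are 38 genes given by name, of which 37 have a probe set of their own among the 19937 genes measured. They fall into 7 families: the AP-1 genes Fos, Fosb, Fosl1, Fosl2, Jun, Junb, Jund and Atf3, the zinc finger genes Egr1, Egr2, Egr3, Klf2, Klf6 and Klf10, the orphan nuclear receptor genes Nr4a1, Nr4a2 and Nr4a3, the Ier genes Ier2, Ier3 and Ier5, the phosphatase genes Dusp1, Dusp2, Dusp5 and Dusp6, the restraint genes Zfp36, Btg1, Btg2, Gadd45a, Gadd45b, Gadd45g, Socs3 and Mcl1, and the heat shock genes Hspa1a, Hspb1, Dnajb1, Hspa8 and Hsp90aa1. For each, the probe set with the highest mean over all arrays was taken. Hspa1b shares its probe set with Hspa1a and has no value of its own here, and the value of Hspa1a is uncertain because the copies are nearly identical.

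RNA of sorted CD11b+ myeloid cells from wild-type female C57BL/6 mice, 6 weeks old, was measured on 38 gene arrays in 13 populations. All populations have n = 3 arrays of independent pools of mice, except P1 after DNFB with n = 2. DNFB, a hapten that provokes contact hypersensitivity, was painted on ear skin (10 µl of a 0.5% solution in acetone and olive oil), and tissues were taken 3 days later. From the cutaneous lymph node came CD64+ cells that carry Ly6C, CD11c and high MHC II (after DNFB), and CD64-negative dendritic cells (DC) with CD11c and high MHC II (after DNFB and at steady state). From the dermis at steady state came P5 (CD64+, Ly6C-negative, CCR2-negative, MHC II+), P4 (the same without MHC II), DC (CD24-negative, CD64-negative, MHC II+), P3 (CD64+, Ly6Clow, CCR2+, MHC II+), P2 (CD64+, Ly6Chigh, CCR2+, MHC II+) and P1 (CD64low, Ly6Chigh, CCR2+, MHC II-negative), and after DNFB came DC, P2 and P1. Ly6Chigh monocytes came from the blood of untreated mice. Per the labels, skin was digested with dispase and collagenase 4, and nodes with collagenase 2. No digestion is described for blood. Tissue and digestion therefore go together, and a difference between blood, skin and node cannot be told apart from a difference in how the cells were released.

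Immediate early genes are transcribed within minutes of a stimulus without new protein synthesis, mostly through kinases that activate factors already bound at their promoters. Their products are short-lived transcription factors (AP-1, Egr, Klf and Nr4a) and the brakes on the same signals: Dusp phosphatases switch off MAP kinases, Zfp36 speeds the decay of cytokine mRNA, and Socs3 blocks cytokine receptors. In myeloid cells they accompany activation. They are also known to be induced while tissue is dissociated, as are heat shock genes, whose chaperones refold damaged proteins.

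The promoters of the Nr4a genes and of Fos are shown because blood had the highest mean of Fos and Nr4a1 and the lowest of Nr4a2 and Nr4a3, a choice made after their values were seen. The windows run from 250 bases before to 50 bases after each start site, are given 5′ to 3′ on the gene's strand, and come from RefSeq (GRCm38.p6). Capitals mark the CRE core, the letters TGACG on either strand, part of the site bound by CREB-type factors. The Nr4a1 window lies at chr15:101266596-101266895 on the plus strand, Nr4a2 at chr2:57123954-57124253 on the minus strand, Nr4a3 at chr4:48045055-48045354 on the plus strand and Fos at chr12:85473640-85473939 on the plus strand.
Nr4a1: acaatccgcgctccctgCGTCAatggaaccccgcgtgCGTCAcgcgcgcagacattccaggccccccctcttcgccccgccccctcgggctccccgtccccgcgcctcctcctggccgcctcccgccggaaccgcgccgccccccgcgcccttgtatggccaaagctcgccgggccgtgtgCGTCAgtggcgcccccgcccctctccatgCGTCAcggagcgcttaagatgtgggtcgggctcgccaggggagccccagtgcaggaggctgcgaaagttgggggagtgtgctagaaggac
Nr4a2: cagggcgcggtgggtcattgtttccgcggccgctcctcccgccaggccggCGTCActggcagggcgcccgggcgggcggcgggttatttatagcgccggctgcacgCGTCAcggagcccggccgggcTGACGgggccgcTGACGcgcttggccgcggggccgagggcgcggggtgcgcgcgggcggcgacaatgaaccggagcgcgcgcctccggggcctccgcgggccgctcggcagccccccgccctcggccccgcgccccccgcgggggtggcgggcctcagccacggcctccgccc
Nr4a3: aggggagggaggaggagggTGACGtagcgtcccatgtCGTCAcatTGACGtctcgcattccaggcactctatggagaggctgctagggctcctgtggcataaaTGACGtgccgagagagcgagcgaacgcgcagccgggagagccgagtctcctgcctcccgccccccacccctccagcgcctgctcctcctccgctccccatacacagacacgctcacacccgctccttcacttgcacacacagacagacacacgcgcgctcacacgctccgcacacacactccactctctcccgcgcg
Fos: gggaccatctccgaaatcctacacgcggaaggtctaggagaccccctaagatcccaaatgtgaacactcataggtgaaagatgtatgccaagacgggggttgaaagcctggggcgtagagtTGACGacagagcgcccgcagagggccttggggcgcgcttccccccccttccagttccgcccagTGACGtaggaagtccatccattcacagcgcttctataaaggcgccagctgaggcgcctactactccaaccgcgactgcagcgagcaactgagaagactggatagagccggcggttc

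The 3 Nr4a windows hold 4 CRE cores each, and the Fos window holds 2. Of the 38 members 31 could be matched to a window, and 17 of those genes (54.8%) hold at least 1 CRE core in one of their 36 windows, against 23.0% of all 27025 genes with a window. The full CRE, TGACGTCA, which contains the core on both strands, is in the windows of Btg2 and Dusp1, 6.45% of the members against 2.03% of all genes. The CArG box, the site of serum response factor, is in windows of Dusp5, Egr2 and Zfp36, 9.68% of the members against 1.81% of all genes. Egr2 holds it in 4 windows, several of which overlap and share the same site. The letters GAANNTTC, a pair of heat shock units, are in the windows of Fosl2, Jun, Hspb1, Hspa1a and Hspa1b, 16.1% against 9.04% of all genes. These letters were chosen after a longer form had matched 0 member windows, so that this share is not an independent test. Hspa1a and Hspa1b hold them at the same place in nearly identical windows. The AP-1 letters TGANTCA are in 0 members, against 8.97% of all genes. All motifs were searched on both strands. The windows were not matched for base composition. Hspa1a and Hspa1b have the same base at 296 of 300 window positions, 98.7%.

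Array medians lay between 4.39 and 4.65, and correlations between replicates of a population between 0.931 and 0.986. Transcripts of other skin cells were present on the dermal arrays. The mean log2 level of 14 keratinocyte genes was 4.48 to 4.67 in node populations, 5.77 to 7.63 in dermal populations and 4.40 in blood. That of 11 fibroblast genes was 4.47 to 4.65, 5.12 to 8.44 and 4.25 in the same tissues. Replicate 2 of steady-state P1 stood apart, with a fibroblast mean of 10.37 against 6.70 and 7.46 on the other P1 arrays. The list means of endothelial, T, B and NK cell genes stayed between 3.43 and 5.22 in every population. Single genes of these lists stood higher. Cd2 averaged 8.19 in steady-state dermal DC and Cd28 6.59 in P4. In node CD64+ cells Cd79b averaged 8.45 and Kdr 5.72. The mast cell and basophil list mean was 5.66 ± 0.77 in P4 (SD, n = 3) and 3.66 to 4.62 elsewhere. The neutrophil list mean was 5.39 and 5.23 in P2 and P1 after DNFB, against 4.53 and 4.74 at steady state. Cxcr2 of that list had its highest mean in node CD64+ cells, at 5.69. Macrophage genes averaged 10.12 in P5 and 10.40 in P4, and monocyte genes 10.29 in steady-state P1 and 10.77 in blood. DC genes averaged 8.93 to 9.83 in the DC populations. Fcgr1, which encodes CD64, averaged 8.23 in node CD64+ cells and 4.5 in node DC after DNFB. Itgam, which encodes the sort marker CD11b, was low in node DC, at 4.74 after DNFB and 4.62 at steady state, where dermal DC had 10.00 and 9.52. The RNA of this defining marker was thus not borne out in node DC. The arrays do not measure CD11b protein, on which the cells were sorted.

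The range of the 13 group means had a median of 2.41 log2 units over the members and 0.70 over all genes, beside a median level of 8.76 and 4.85. In the limma F test across the 13 populations 34 of 37 members differed at an adjusted p under 0.05, against 40.1% of all genes and 74.1% of the 6292 genes whose mean level was at least that of the lowest member. Egr3, Zfp36 and Dnajb1 did not pass. The lowest member was Hspb1, with a mean of 6.11. The 6292 genes, called genes at the members' level below, share that floor only and were not matched to the members' median of 8.76. The heat map of group means shows 3 blocks of columns, with many rows low in the node and high in the dermis, and rows of either kind in blood.

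**Figure D1:**
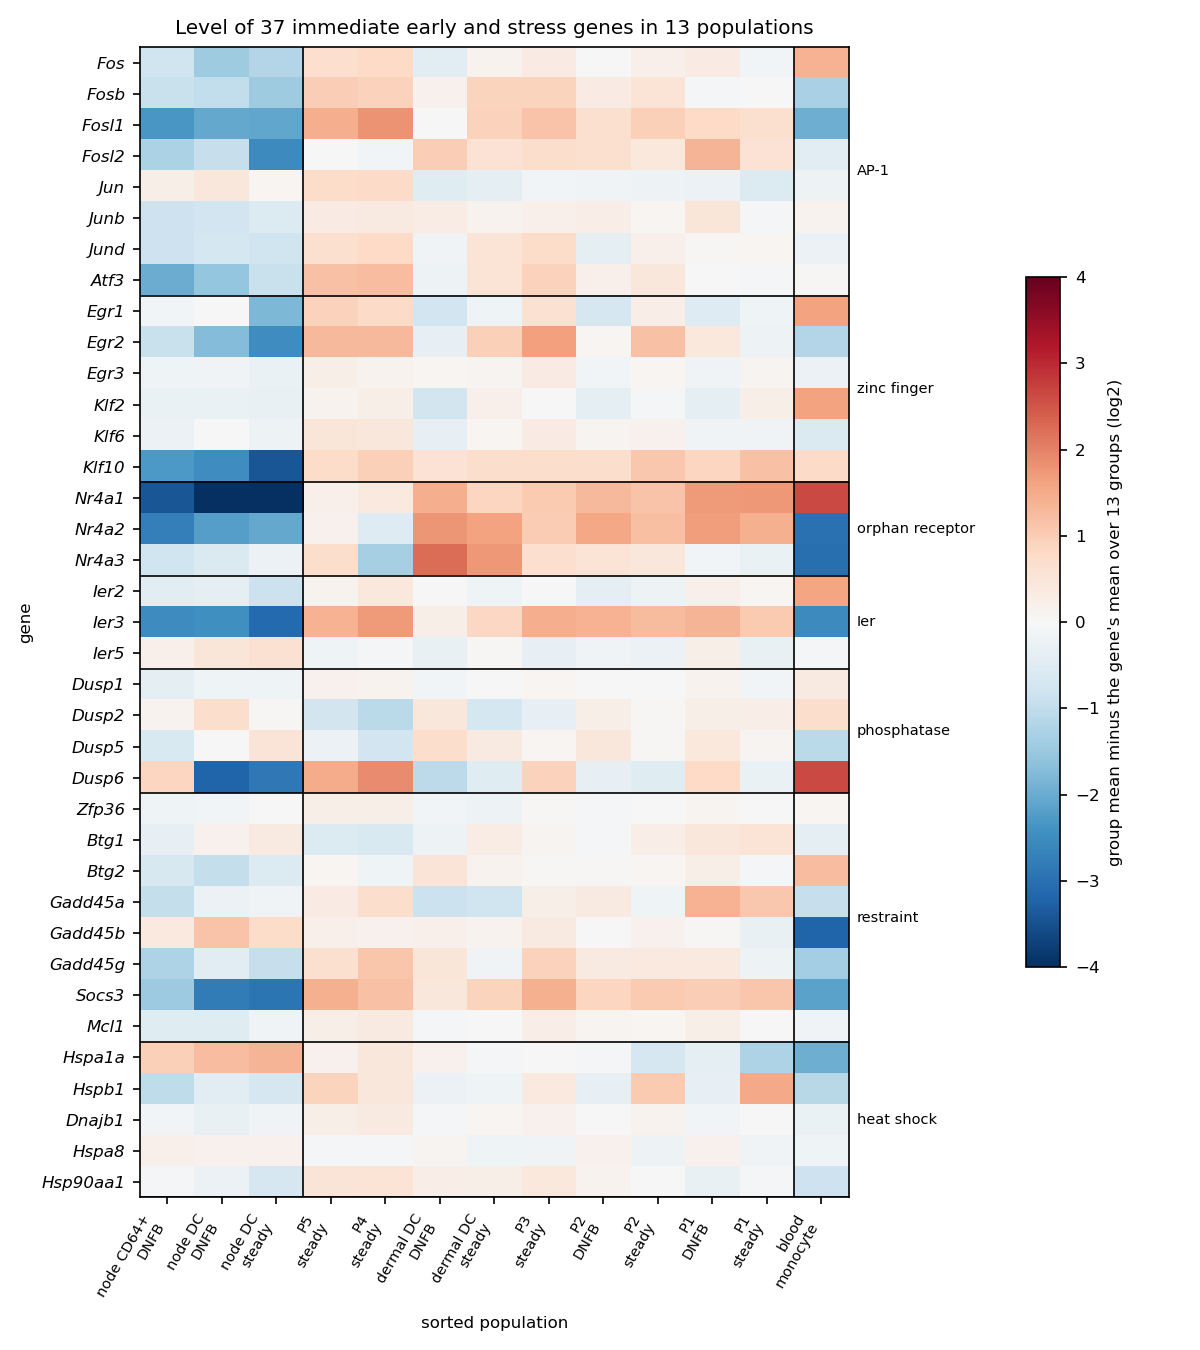
Each row is 1 of 37 genes and each column 1 of 13 populations, grouped as node, dermis and blood by the vertical lines. Colour gives the group mean minus the gene's mean over the 13 groups on the log2 scale, red for higher and blue for lower. Nr4a1, Klf10, Ier3 and Socs3 are blue in the 3 node columns, and Nr4a2, Nr4a3 and Gadd45b are blue in blood while Nr4a1 and Dusp6 are red there.

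Among AP-1 genes, whose products pair as Fos-type and Jun-type subunits, Fosl1 had the widest range of group means (4.12 log2 units). Fosl1 was 4.60, 4.18 and 4.71 in node CD64+ cells, 4.62, 4.94 and 4.70 in node DC after DNFB and 4.75, 4.78 and 4.67 in node DC at steady state. It was 4.47, 4.68 and 5.45 in blood. Every dermal array lay above these, the lowest at 6.65 (DC after DNFB) and the highest at 8.83 (P4). Fosl2 ran from 5.88 ± 0.10 in steady-state node DC to 9.79 ± 0.10 in P1 after DNFB (SD, n = 3 and 2), Fosb from 9.20 ± 0.66 in steady-state node DC to 11.60 ± 0.04 in P5, and Atf3, a stress-induced repressor, from 9.07 ± 0.88 in node CD64+ cells to 12.29 ± 0.11 in P4 (SD, n = 3). Atf3 in blood (11.10) lay within the dermal means, and Fos had its highest mean in blood, 12.01 ± 0.08, with its lowest, 9.19 ± 0.50, in node DC after DNFB (SD, n = 3). The Jun genes moved less. Group means of Jun lay between 9.30 in P1 and 10.63 in P4, of Junb between 8.0 in node CD64+ cells and 9.32 in P1 after DNFB, and of Jund between 8.09 in node CD64+ cells and 9.72 in P4.

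Among the zinc finger genes, Klf10, a TGF-beta-induced repressor, had the widest range (4.60). Klf10 was 5.46, 5.62 and 6.03 in node CD64+ cells, 5.30, 5.35 and 5.94 in node DC after DNFB and 4.61, 4.69 and 4.44 in node DC at steady state. Outside the node it lay between 8.36 and 9.39 on every dermal array and at 8.96, 8.42 and 8.94 in blood. For Klf10 the node did not overlap with either other tissue. Egr1 ranged from 7.85 ± 0.32 in steady-state node DC to 11.26 ± 0.18 in blood, and Klf2, a factor of quiescence, from 6.94 ± 0.26 in dermal DC after DNFB to 9.29 ± 0.22 in blood (SD, n = 3). Egr2 ran from 6.19 ± 0.30 in steady-state node DC to 10.30 ± 0.09 in P3 (SD, n = 3). Group means of Klf6 lay between 10.38 in blood and 11.45 in P5, and those of Egr3 between 6.05 and 6.62.

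The Nr4a genes encode nuclear receptors that act without a known ligand in the cell and are induced by strong activating signals. Nr4a1 had the widest range of all members, 7.35 log2 units. Its level in node DC, like that of Dusp6, lay near the array medians, so that differences from it are to be read as lower bounds. The same holds for Klf10 in steady-state node DC (mean 4.58) and for Fosl1 in the node and in blood. Nr4a1 was 5.94, 5.59 and 5.53 in node CD64+ cells, 5.37, 4.71 and 4.16 in node DC after DNFB and 4.82, 4.54 and 3.82 in node DC at steady state. In blood it was 11.75, 11.64 and 11.84. Dermal arrays lay between 8.91 (P5) and 11.13 (P1), so that the 3 tissues did not overlap. Nr4a2 and Nr4a3 were lowest in blood, at means of 5.31 ± 0.59 and 5.12 ± 0.20, and highest in dermal DC after DNFB, at 10.07 ± 0.13 and 10.37 ± 0.15 (SD, n = 3). For Nr4a2 the node (4.80 to 6.53) and blood (4.78 to 5.95) overlapped, whereas for Nr4a3 every node array (6.20 to 8.20) lay above blood (4.91 to 5.30).

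**Figure D2:**
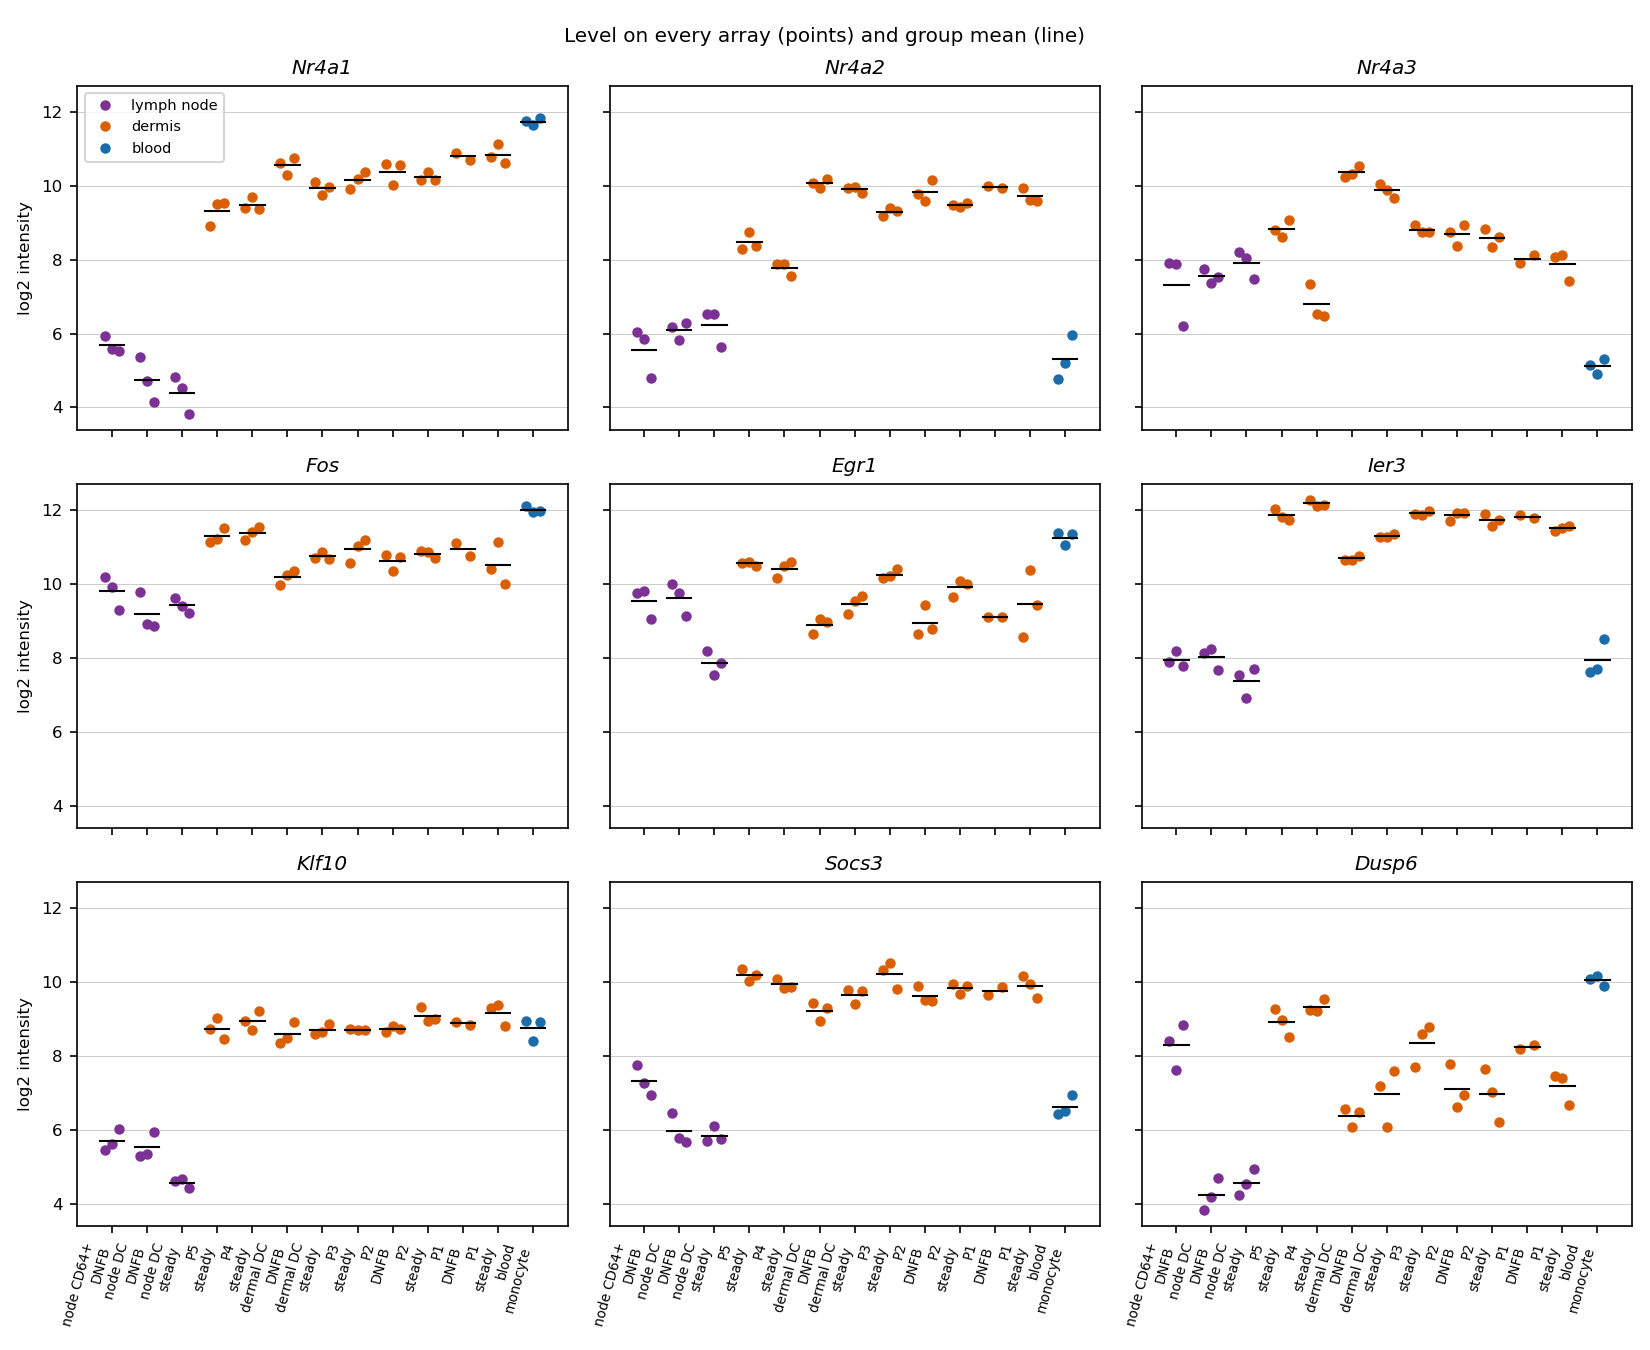
Log2 intensity of 9 genes on each of 38 arrays, with populations along the horizontal axis and colours for node, dermis and blood. Points are arrays and short lines group means. Nr4a1, Fos, Egr1 and Dusp6 are highest in blood, Nr4a2, Nr4a3, Ier3 and Socs3 are high in the dermis and low in blood, and Dusp6 is high in node CD64+ cells but not in node DC.

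Of the Ier genes, Ier3, which guards against cell death, ranged over 4.80 log2 units. It was 7.89, 8.19 and 7.77 in node CD64+ cells, 8.13, 8.24 and 7.68 in node DC after DNFB, 7.53, 6.91 and 7.71 in steady-state node DC, and 7.62, 7.71 and 8.50 in blood. All dermal arrays lay between 10.66 (DC after DNFB) and 12.28 (P4). Ier2 differed from it in blood, where Ier2 had its highest mean (10.31 ± 0.36), while its lowest was likewise in steady-state node DC (7.86 ± 0.36, SD, n = 3). Ier5 was highest in steady-state node DC, at 7.95 ± 0.17, and lowest in P3, at 6.99 ± 0.27 (SD, n = 3).

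The phosphatase genes were led by Dusp6, whose product removes phosphate from ERK in the cytoplasm and which is itself an ERK target. Dusp6 was 8.42, 7.62 and 8.84 in node CD64+ cells, but 3.82, 4.20 and 4.70 in node DC after DNFB and 4.24, 4.53 and 4.95 in node DC at steady state. In blood it was 10.09, 10.18 and 9.91. Its dermal means ran from 6.39 ± 0.26 in DC after DNFB to 9.34 ± 0.19 in P4 (SD, n = 3). Dusp6 was thus the member that most clearly divided CD64+ from CD64-negative cells within the node. Dusp2 had means between 6.30 in P4 and 8.09 in blood, Dusp5, a nuclear ERK phosphatase, between 7.30 in blood and 9.07 in dermal DC after DNFB, and Dusp1 between 11.56 in node CD64+ cells and 12.30 in blood.

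Of the restraint genes, Socs3 had the widest range (4.37). Socs3 had another probe set, with a mean of 8.57 over all arrays against 8.76 on the probe set used. The other averaged 5.69 in steady-state node DC, 9.36 in steady-state dermal DC and 7.24 in blood. On the probe set used these means were 5.85, 9.66 and 6.63, so that the size of a difference depended on the probe set. Socs3 was 7.75, 7.27 and 6.95 in node CD64+ cells, 6.45, 5.79 and 5.68 in node DC after DNFB, 5.70, 6.10 and 5.75 in steady-state node DC, and 6.42, 6.52 and 6.95 in blood. Dermal arrays lay between 8.95 and 10.52, above all of these. Gadd45b, a stress sensor upstream of p38, departed from that order: its means ran from 7.40 ± 1.04 in blood to 11.73 ± 0.10 in node DC after DNFB (SD, n = 3). Gadd45a and Gadd45g, of the same family, had means of 5.91 in node CD64+ cells to 8.26 in P1 after DNFB, and of 4.94 in blood to 7.42 in P4. Btg2, an antiproliferative gene, was highest in blood (10.63 ± 0.24) and lowest in node DC after DNFB (8.43 ± 0.26, SD, n = 3). Btg1 (10.04 to 11.19), the survival gene Mcl1 (10.55 to 11.38) and Zfp36 (10.91 to 11.36) had the narrower ranges of group means in this family.

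Among heat shock genes, Hspa1a, an inducible HSP70, had the widest range (3.32). Hspa1a was 9.42, 8.93 and 9.62 in node CD64+ cells, 9.54, 9.02 and 10.24 in node DC after DNFB and 9.65, 10.09 and 9.43 in steady-state node DC, against 6.24, 6.59 and 6.39 in blood. Dermal arrays lay between 6.82 (P1) and 9.14 (P2 after DNFB). Hspa1a was thus lowest in blood, and node and dermis overlapped. The small heat shock gene Hspb1 ran from 4.98 ± 0.25 in blood to 7.62 ± 0.30 in P1 (SD, n = 3). Means of Hsp90aa1, an inducible HSP90, lay between 9.58 in blood and 10.95 in P4, of the co-chaperone gene Dnajb1 between 6.97 and 7.62, and of the constitutive HSP70 gene Hspa8 between 11.68 and 12.09. In steady-state node DC and dermal DC the Hsp90aa1 probe set used averaged 9.74 and 10.64. Its other probe sets averaged 9.92 and 10.41, and 7.65 and 8.40.

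Dermal P1 monocytes and blood monocytes, compared here to set skin cells against their circulating counterpart, differed in both directions. Of 37 members 15 rose and 8 fell in P1, against 12.6% of all genes called in either direction (5.21% rising and 7.43% falling) and 25% of the 6292 genes at the members' level (8.92% rising and 16.1% falling). Nr4a2 was 9.93, 9.63 and 9.60 in P1, against 4.78, 5.20 and 5.95 in blood, a difference of 4.41 ± 0.26 (SE) or 21.2-fold (limma adjusted p = 6.4e-13). Ier3 was 11.43, 11.53 and 11.58 in P1, against 7.62, 7.71 and 8.50 in blood (3.57 ± 0.18, adjusted p = 2.7e-14). Socs3 was 10.16, 9.94 and 9.56 in P1, against 6.42, 6.52 and 6.95 in blood (3.26 ± 0.22, adjusted p = 7.4e-12). Its other probe set differed less, with means of 9.24 in P1 and 7.24 in blood. The arrays of P1 and blood did not overlap for any of these genes. Gadd45b was 10.15, 10.46 and 10.27 in P1, against 7.39, 6.37 and 8.44 in blood (2.90 ± 0.28, adjusted p = 1.6e-08), where its spread was wide. Nr4a3, Hspb1, Fosl1, Gadd45a, Fosb, Dusp5, Gadd45g, Fosl2, Egr2, Btg1 and Hsp90aa1 rose by 2.75 to 0.78.

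Of the 8 genes that fell in P1, Dusp6 had the largest difference, at 7.46, 7.40 and 6.68 in P1, against 10.09, 10.18 and 9.91 in blood (-2.88 ± 0.38, adjusted p = 3.3e-06). Egr1 was 8.58, 10.38 and 9.44 in P1, against 11.38, 11.05 and 11.35 in blood (-1.79 ± 0.29, adjusted p = 7.2e-05). Fos was 10.41, 11.13 and 9.99 in P1, against 12.10, 11.95 and 11.99 in blood (-1.50 ± 0.24, adjusted p = 6.1e-05). Fos and Egr1 are given by array because, as was seen in their values, both were highest on replicate 2 of P1, the array with the high fibroblast mean, whose part in the result was not tested. Without that array 22 members were called. Ier2, Klf2, Btg2, Nr4a1 and Dusp1 differed by -1.49, -1.40, -1.28, -0.90 and -0.48. Of 16 alternatives, 8 ended the call of Gadd45g and 4 each those of Btg1 and Dusp1. Fosl2 lost its call without replicate 1 of blood and Egr2 without replicate 2 of blood. Egr1 lost its call when P1 and blood alone were fitted, and Nr4a1 lost it without replicate 3 of P1. Of 14 keratinocyte genes 10 rose, and of 11 fibroblast genes 10 rose. When the mean levels of these lists entered the fit as covariates, 12 of the 23 calls remained. They were Nr4a2, Ier3, Socs3, Gadd45b, Nr4a3 and Fosl1 among the rises and Dusp6, Egr1, Fos, Klf2, Btg2 and Nr4a1 among the falls. Of the 11 others, 10 had at least 75% of their difference with the covariates, such as Gadd45a (2.46), Hspb1 (2.14) and Ier2 (-1.59), while Gadd45g had 0.59, which is 51.5% of it. Some differences grew in size, such as that of Fos to -2.68 and that of Nr4a1 to -1.89. In this fit, here and below, the slopes of the covariates come from differences between arrays of the same population. The list means also differ between tissues, so that the fit cannot decide the part of other skin cells' RNA.

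Taking the mean of the 6 steady-state dermal populations against blood, 20 members rose and 9 fell, against 19.3% of all genes (8.3% rising and 11% falling) and 39.2% of genes at the members' level (16.2% rising and 23% falling). Ier3 rose by 3.81 ± 0.14 (adjusted p = 2.9e-18), its 18 dermal arrays running from 11.29 to 12.28. Nr4a2 rose by 3.80 ± 0.20 (adjusted p = 5.4e-15), Nr4a3 by 3.34 ± 0.23 (adjusted p = 2.2e-12) and Gadd45b by 3.33 ± 0.22 (adjusted p = 5.9e-13). Socs3, Fosl1, Egr2 and Fosb rose by 3.32, 3.10, 2.21 and 2.01. By family, 5 of 8 AP-1 genes rose and 1 fell, 2 of 3 Nr4a genes rose and 1 fell, 1 of 4 phosphatase genes rose and 3 fell, and 3 of 5 heat shock genes rose and 0 fell. Dusp6 (-2.10 ± 0.29), Nr4a1 (-1.75 ± 0.19), Ier2 (-1.53 ± 0.24) and Klf2 (-1.50 ± 0.18) had the largest falls. With the covariates 17 of the 29 calls remained. Of the 12 others, 8 had at least 75% of their difference, such as Gadd45a (1.63), Ier2 (-1.64) and Fosl2 (1.27), whereas Atf3 had 0.16, Egr3 -0.023, Dusp2 -0.67 and Gadd45g 1.34. Of 31 alternatives, 4 each ended the calls of Egr3 and Mcl1, 3 each those of Atf3 and Dusp1 and 2 that of Fosl2.

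**Figure D3:**
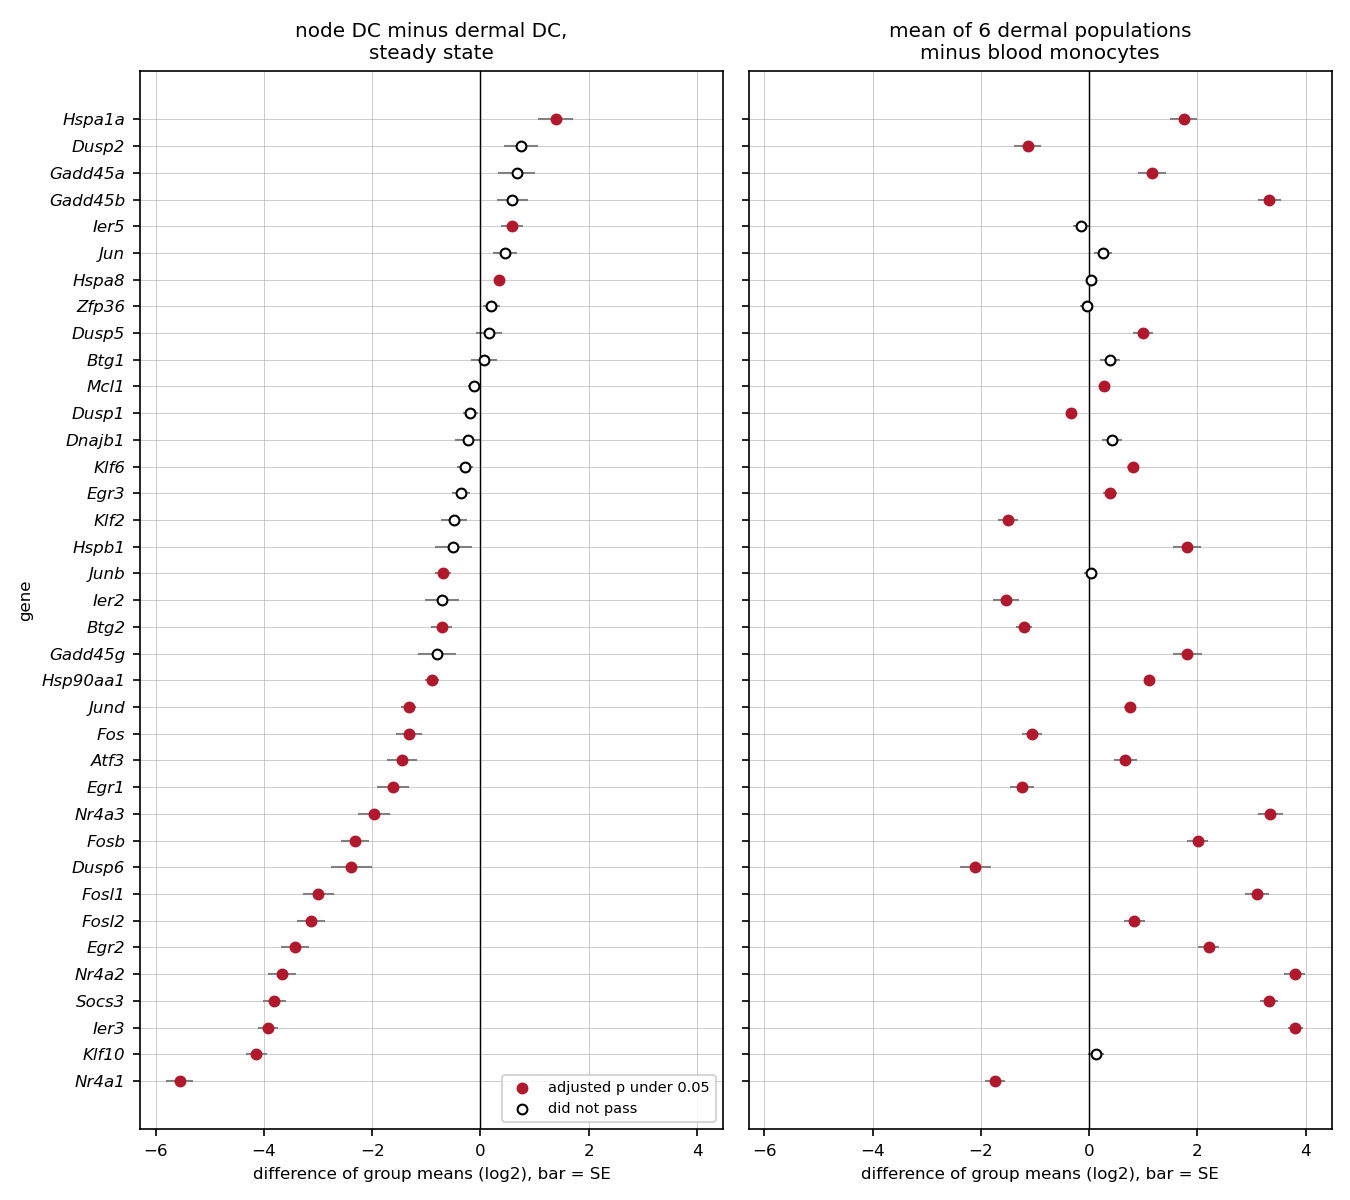
Difference of group means (log2) with its SE for 37 genes, for node DC minus dermal DC at steady state (left) and for the mean of 6 dermal populations minus blood (right), in the order of the left panel. Filled points passed an adjusted p of 0.05. Nr4a1 is at the low end on the left at -5.56 and at -1.75 on the right, whereas Nr4a2 and Ier3 are at -3.67 and -3.93 on the left and at 3.80 and 3.81 on the right.

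Within the dermis at steady state, where all cells shared a digest, 22 of 37 members still differed in the F test over the 6 populations, against 15% of all genes and 29.8% of genes at the members' level. The other 15 were Fos, Fosl2, Junb, Egr3, Klf2, Klf10, Ier2, Ier5, Dusp1, Zfp36, Btg2, Gadd45b, Socs3, Dnajb1 and Hspa8. In P2 against P1, 1 rose and 1 fell (2.09% of all genes called, 1.34% rising and 0.742% falling, and 4.5% of genes at the members' level), a count near the share at that level. Egr2 was 9.58, 9.68 and 10.23 in P2, against 8.60, 8.34 and 8.47 in P1 (1.36 ± 0.26, adjusted p = 0.0021). Gadd45a was 6.88, 6.70 and 6.48 in P2, against 8.20, 7.96 and 7.67 in P1 (-1.26 ± 0.34, adjusted p = 0.044), a call that was lost without any 1 of the 6 arrays. In P3 against P2, and in dermal DC against P3, 0 members passed in limma. At an unadjusted p under 0.05 there were 4 and 10. Of all genes 0.371% were called between P3 and P2 (0.176% rising and 0.196% falling, and 0.636% of genes at the members' level) and 1.8% between DC and P3 (0.747% rising and 1.05% falling, and 3.66% of genes at the members' level). Without replicate 1 of P2, 2 members passed between P3 and P2, and 1 passed between DC and P3 without replicate 1 of P3 or replicate 3 of DC.

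Dermal P4 and P5 macrophages, taken as their mean, and dermal DC differed in 13 members, 9 higher and 4 lower in macrophages (9.83% of all genes called, 4.73% rising and 5.09% falling, and 19.6% of genes at the members' level). Dusp6 was 9.25, 9.21 and 9.55 in P4 and 9.29, 8.98 and 8.52 in P5, against 7.20, 6.09 and 7.60 in DC (2.17 ± 0.33, adjusted p = 1.8e-05). Nr4a3 was 7.35, 6.54 and 6.48 in P4 and 8.82, 8.61 and 9.08 in P5, against 10.06, 9.90 and 9.68 in DC (-2.06 ± 0.26, adjusted p = 9.5e-07). Nr4a2 was 7.89, 7.88 and 7.56 in P4 and 8.29, 8.74 and 8.38 in P5, against 9.94, 9.97 and 9.81 in DC (-1.78 ± 0.22, adjusted p = 9.5e-07). For these genes no macrophage array overlapped with DC. Gadd45a was 8.11, 6.97 and 7.62 in P4 and 7.33, 7.06 and 7.21 in P5, against 6.22, 5.79 and 6.17 in DC (1.32 ± 0.29, adjusted p = 0.0021). Jun rose by 1.12 ± 0.19, Egr1 by 1.02 ± 0.25, Gadd45g by 1.01 ± 0.30 and Ier3 by 0.71 ± 0.16, and Btg1 and Dusp5 differed by -0.86 and -0.84. Zfp36, Klf6 and Mcl1 rose by 0.44, 0.40 and 0.32. Of 19 alternatives, among them quantile normalization and median centring, 11 ended the call of Klf6 and 7 each those of Zfp36 and Mcl1. Gadd45g lost its call under 5 and Egr1 under 2, and Dusp5 without replicate 1 of DC. The fibroblast list mean was 6.63 and 6.65 in P4 and P5, against 5.50 in DC. With the list means as covariates 8 of these 13 calls remained, and Egr1, Klf6, Zfp36, Btg1 and Gadd45g were lost, at differences of 0.60, 0.45, 0.41, -0.74 and 0.86.

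The macrophage populations differed from each other in Nr4a3 alone among 37 members (0.492% of all genes called, 0.291% rising and 0.201% falling, and 0.922% of genes at the members' level). Nr4a3 rose by 2.04 ± 0.30 in P5 over P4 (4.12-fold, adjusted p = 0.00015), with no overlap between the arrays given above. The call was lost when only P4 and P5 were fitted. The mast cell genes Mcpt4, Cpa3 and Cma1 averaged 6.54, 4.93 and 4.24 in P5, against 9.49, 7.60 and 6.11 in P4, with 0 of the 8 genes of that list called in limma, and their part in the result was not tested.

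Lymph node DC had lower levels than dermal DC for many members. At steady state 3 members rose and 18 fell, against 20.3% of all genes (10.1% in each direction) and 41.1% of genes at the members' level (15.8% rising and 25.3% falling). Nr4a1 was 4.82, 4.54 and 3.82 in node DC, against 10.11, 9.76 and 9.97 in dermal DC, a difference of -5.56 ± 0.24 (adjusted p = 1.4e-16). Klf10 was 4.61, 4.69 and 4.44 in node DC, against 8.61, 8.67 and 8.87 in dermal DC (-4.14 ± 0.19, adjusted p = 4.2e-16). Ier3 was 7.53, 6.91 and 7.71 in node DC, against 11.29, 11.29 and 11.35 in dermal DC (-3.93 ± 0.18, adjusted p = 4.2e-16). None of these arrays overlapped. Socs3 was 5.70, 6.10 and 5.75 in node DC, against 9.78, 9.42 and 9.77 in dermal DC (-3.81 ± 0.22, adjusted p = 3.3e-14). In the AP-1 family 7 of 8 fell and 0 rose, with differences of -3.13 for Fosl2, -3.00 for Fosl1, -2.32 for Fosb, -1.46 for Atf3, -1.33 for Fos and Jund each and -0.69 for Junb. All 3 Nr4a genes fell, with -3.67 for Nr4a2 and -1.97 for Nr4a3. Egr2, Dusp6 and Egr1 differed by -3.42, -2.39 and -1.62, and Hsp90aa1 and Btg2 by -0.90 and -0.72. The 3 rises were Hspa1a (1.39 ± 0.32, adjusted p = 0.0018), Ier5 (0.59 ± 0.20, adjusted p = 0.037) and Hspa8 (0.34 ± 0.09, adjusted p = 0.0037). The call of Ier5 was lost under 9 of 16 alternatives, among them median centring and 5 removals of 1 array, and that of Hspa8 under 3.

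After DNFB the same pair of tissues gave 4 rises and 19 falls (17.5% of all genes called, 8.44% rising and 9.04% falling, and 37.4% of genes at the members' level, 13.7% rising and 23.6% falling). Nr4a1 was 5.37, 4.71 and 4.16 in node DC, against 10.62, 10.28 and 10.75 in dermal DC (-5.81 ± 0.24, adjusted p = 6.2e-17). Nr4a2 was 6.18, 5.82 and 6.28 in node DC, against 10.09, 9.93 and 10.18 in dermal DC (-3.98 ± 0.26, adjusted p = 9.7e-13). Socs3 was 6.45, 5.79 and 5.68 in node DC, against 9.44, 8.95 and 9.31 in dermal DC (-3.26 ± 0.22, adjusted p = 1.3e-12). These groups again did not overlap. Klf10 was 5.30, 5.35 and 5.94 in node DC, against 8.36, 8.49 and 8.92 in dermal DC (-3.06 ± 0.19, adjusted p = 4.7e-13). The rises were Hspa1a (1.05 ± 0.32), Jun (0.93 ± 0.22), Gadd45b (0.91 ± 0.28) and Ier5 (0.78 ± 0.20). Of 16 alternatives, 8 ended the call of Dusp5, which fell, and 4 each those of Hspa1a and Gadd45b. The keratinocyte list mean was 4.67 in node DC against 6.64 in dermal DC at steady state, and 4.64 against 5.77 after DNFB. With the list means as covariates 16 of 21 calls remained at steady state, where Nr4a1 differed by -5.13, and 20 of 23 remained after DNFB. Hspa1a lost its call in both, at 0.91 at steady state and 0.78 after DNFB. The other calls lost were Atf3 (-1.12), Ier5 (0.42), Btg2 (-0.32) and Hspa8 (0.29) at steady state, and Dusp5 (-0.64) and Gadd45b (0.87) after DNFB.

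CD64+ cells of the node after DNFB, whose labels name both migratory dermal monocytes and migratory CD11b+ DC, had low levels of many members too. Against dermal P2 cells after DNFB, 2 members rose and 19 fell (12.6% of all genes called, 7.26% rising and 5.37% falling, and 26.2% of genes at the members' level, 13.3% rising and 12.9% falling). Nr4a1 was 5.94, 5.59 and 5.53 in node CD64+ cells, against 10.58, 10.01 and 10.57 in P2 (-4.70 ± 0.24, adjusted p = 1.6e-14). Nr4a2 was 6.05, 5.85 and 4.80 in node CD64+ cells, against 9.79, 9.59 and 10.15 in P2 (-4.28 ± 0.26, adjusted p = 4.4e-13). Ier3 was 7.89, 8.19 and 7.77 in node CD64+ cells, against 11.72, 11.92 and 11.93 in P2 (-3.91 ± 0.18, adjusted p = 1.5e-15). Node and dermis did not overlap in these genes. Klf10 was 5.46, 5.62 and 6.03 in node CD64+ cells, against 8.65, 8.81 and 8.73 in P2 (-3.02 ± 0.19, adjusted p = 1.1e-12). Fosl1, Socs3 and Atf3 differed by -2.95, -2.31 and -2.17. Dusp6 rose by 1.18 and Hspa1a by 1.00, both with overlapping arrays. The keratinocyte and fibroblast means were 4.48 and 4.65 in node CD64+ cells, against 6.52 and 7.06 in P2, and with these as covariates, as also when only these groups were fitted, 12 members were called in place of 21. With the covariates 11 of the 21 remained. Fos differed by -0.82 without the covariates and by -0.05 with them. Of the 10 calls lost, 7 had at least 75% of their difference with the covariates. Of 16 alternatives, 8 ended the call of Hspa1a, 7 that of Dusp6, 6 that of Jund and 5 each those of Fos and Btg2. Without replicate 3 of the CD64+ cells 16 members were called.

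Within the node after DNFB, where digestion was shared, 3 members rose and 0 fell in CD64+ cells over DC (4.82% of all genes called, 3.82% rising and 1% falling, and 10.6% of genes at the members' level). The count of members was thus near the share at that level, and all genes leaned to rises too. Dusp6 was 8.42, 7.62 and 8.84 in CD64+ cells, against 3.82, 4.20 and 4.70 in DC (4.05 ± 0.38, adjusted p = 5e-09). Socs3 was 7.75, 7.27 and 6.95 in CD64+ cells, against 6.45, 5.79 and 5.68 in DC (1.35 ± 0.22, adjusted p = 6.5e-05). Nr4a1 was 5.94, 5.59 and 5.53 in CD64+ cells, against 5.37, 4.71 and 4.16 in DC (0.94 ± 0.24, adjusted p = 0.017). CD64+ arrays lay above all DC arrays in each case. The call of Nr4a1 was lost without replicate 1 of the CD64+ cells or replicate 2 or 3 of DC. Of 8 macrophage genes 7 rose and of 6 monocyte genes 5 rose in the same comparison. From the neutrophil list S100a8, S100a9, Csf3r and Cxcr2 averaged 6.48, 6.00, 7.07 and 5.69 in CD64+ cells, against 4.62, 4.15, 4.68 and 3.38 in DC. Mpo and Elane of that list were lower, at 4.47 each against 4.57 and 4.69. The part of neutrophils in the result was not tested.

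DNFB, set against steady state within each sort, gave calls for between 1 and 4 members, too few to be read as a result about the members as a set. In P1, 0 rose and 1 fell, against 0.637% of all genes called (0.562% rising and 0.0752% falling) and 1.3% of genes at the members' level. In P2, 1 rose and 3 fell, against 2.02% (1.02% rising and 0.998% falling) and 4.13% at the members' level. In dermal DC, 1 rose and 3 fell, against 4.16% (2.11% rising and 2.06% falling) and 8.84%, and so near the share at that level. In node DC, 3 rose and 0 fell, against 1.34% (0.903% rising and 0.441% falling) and 2.29%. Hspb1 was 5.51 and 6.01 in P1 after DNFB, against 7.77, 7.82 and 7.27 at steady state (-1.86 ± 0.38, adjusted p = 0.014). That call was lost without replicate 1 of P1 after DNFB. Hspb1 was 6.25, 5.26 and 5.82 in P2 after DNFB, against 7.89, 7.12 and 6.41 at steady state (-1.37 ± 0.34, adjusted p = 0.024). Egr2 was 8.84, 8.22 and 9.16 in P2 after DNFB, against 9.58, 9.68 and 10.23 at steady state (-1.09 ± 0.26, adjusted p = 0.017). Both fell without overlap. Jund was 8.72, 8.38 and 8.56 in P2 after DNFB, against 9.32, 9.0 and 9.04 at steady state (-0.57 ± 0.14, adjusted p = 0.02), and Hspa8 was 12.07, 11.98 and 12.07 after DNFB, against 11.84, 11.52 and 11.68 at steady state (0.36 ± 0.09, adjusted p = 0.02). The 4 calls in P2 became 1 to 3 without 1 array, with 1 left without replicate 2 or 3 of P2 after DNFB and 2 without any 1 of the steady-state arrays. The keratinocyte and fibroblast means of P2 were 6.52 and 7.06 after DNFB, against 7.63 and 8.44 at steady state, and with them as covariates Egr2 alone was called, while Hspb1, Jund and Hspa8 differed by -1.20, -0.58 and 0.34. Of 16 alternatives, 9 ended the call of Hspa8, 7 that of Hspb1, 6 that of Jund and 4 that of Egr2. The neutrophil gene S100a9 averaged 8.23 in P2 after DNFB, against 3.90 at steady state, and 7.05 in P1 after DNFB, against 4.13. Of 10 neutrophil genes 1 rose in each, and the part of such cells in the result was not tested.

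In dermal DC, Egr2 was 7.81, 8.22 and 9.02 after DNFB, against 9.55, 9.50 and 9.78 at steady state (-1.26 ± 0.26, adjusted p = 0.0024). Jund was 8.69, 8.69 and 8.92 after DNFB, against 9.72, 9.38 and 9.26 at steady state (-0.69 ± 0.14, adjusted p = 0.0017). Klf2 was 6.87, 7.22 and 6.72 after DNFB, against 7.58, 8.21 and 7.83 at steady state (-0.93 ± 0.24, adjusted p = 0.02). These 3 genes were lower on every DNFB array. Dusp2 was 7.57, 7.76 and 8.18 after DNFB, against 6.97, 6.55 and 6.52 at steady state (1.16 ± 0.32, adjusted p = 0.035). Egr2 and Jund kept their calls with the covariates (keratinocyte mean 5.77 after DNFB against 6.64), and Klf2 and Dusp2 lost them at differences of -0.75 and 1.00. Of 16 alternatives, 7 each ended the calls of Klf2 and Dusp2, and 1 each those of Egr2 and Jund. Markers of other cells moved too: of 6 monocyte genes 3 rose and 0 fell, of 8 macrophage genes 1 rose and 4 fell, of 7 T cell genes 3 rose and 1 fell, and of 8 mast cell genes 1 rose. Plac8 averaged 10.28 after DNFB, against 5.51 at steady state, Vcan 6.69, against 4.47, Kit 7.54, against 4.14, and Cd3d 5.19, against 3.25. Fcgr1, which encodes the CD64 that this sort excludes, averaged 7.98, against 5.94. Other genes of the same lists were lower after DNFB: C1qa averaged 6.80, against 8.45, C1qb 7.61, against 9.72, C1qc 7.49, against 10.20, and the mast cell gene Mcpt4 5.30, against 6.06. The part of other cells in the result was not tested. The 4 calls became 2 without replicate 2 or 3 of steady-state DC or without replicate 1 or 3 of DC after DNFB.

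In node DC the changes went up. Egr1 was 10.01, 9.76 and 9.13 after DNFB, against 8.18, 7.54 and 7.85 at steady state (1.78 ± 0.29, 3.43-fold, adjusted p = 0.00048). Fosl2 was 7.42, 7.53 and 7.52 after DNFB, against 5.83, 5.81 and 6.00 at steady state (1.61 ± 0.26, adjusted p = 0.00031). Klf10 was 5.30, 5.35 and 5.94 after DNFB, against 4.61, 4.69 and 4.44 at steady state (0.95 ± 0.19, adjusted p = 0.0053). All DNFB arrays lay above all steady-state arrays for each gene, and Klf10 lost its call without replicate 3 of node DC after DNFB. Klf10 and Fosl2 nevertheless lay below dermal DC in both conditions, by the tests given above.

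**Figure D4:**
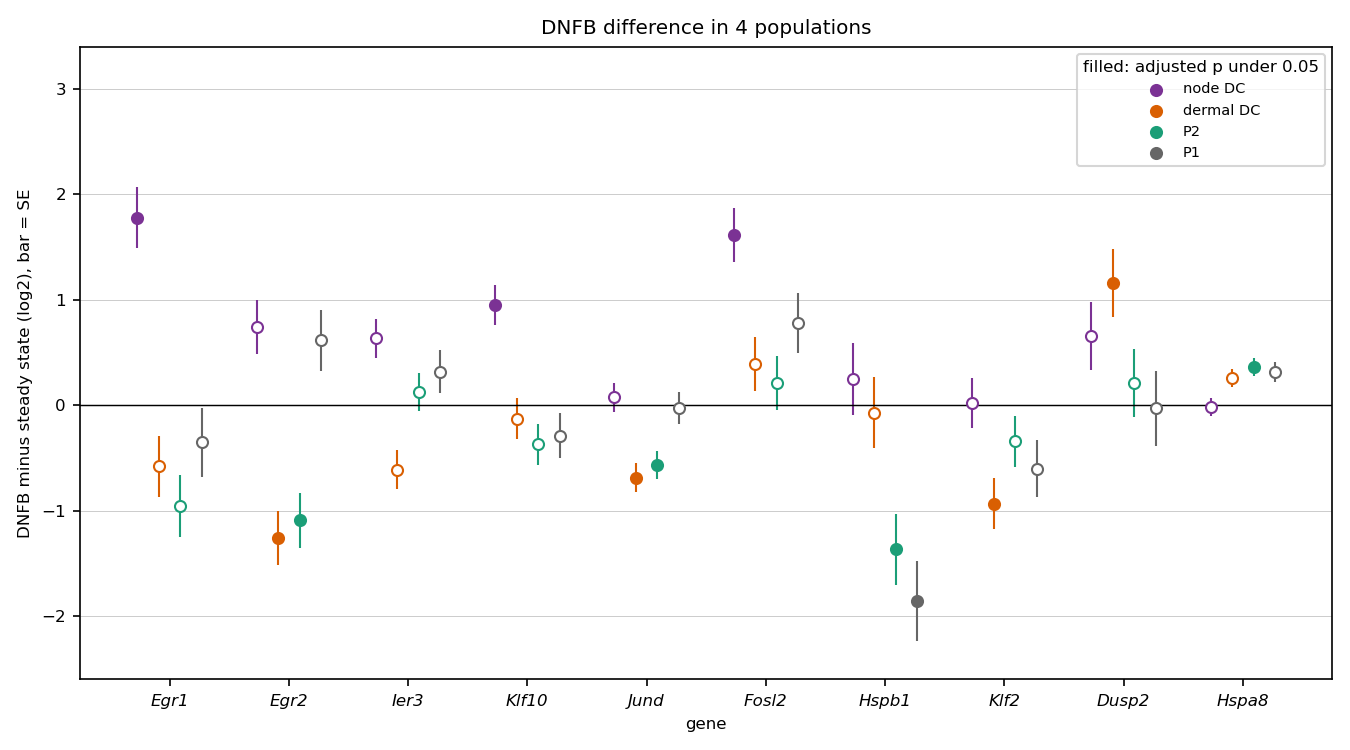
DNFB minus steady state (log2) with its SE for 10 genes in node DC, dermal DC, P2 and P1. Filled points passed an adjusted p of 0.05. Egr1 is at 1.78 in node DC and below 0 in the 3 dermal populations, and Egr2 is below 0 in dermal DC (-1.26) and P2 (-1.09).

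The DNFB effect itself differed between node DC and dermal DC in 5 of 37 members, all more positive in the node (1.31% of all genes called, 0.813% in that direction and 0.497% in the other, and 2.42% of genes at the members' level). For Egr1 the difference of effects was 2.36 ± 0.41 (adjusted p = 0.0017) and for Egr2 2.00 ± 0.36 (adjusted p = 0.0024). For Ier3, at 10.66, 10.66 and 10.77 in dermal DC after DNFB against 11.29, 11.29 and 11.35 at steady state, it was 1.25 ± 0.26 (adjusted p = 0.0085). Klf10 and Jund differed by 1.08 ± 0.27 and 0.76 ± 0.19 (adjusted p = 0.04 each). Of 22 alternatives, 12 each ended the calls of Klf10 and Jund. Egr1, Egr2 and Ier3 passed without any 1 array, and the count was 3 without replicate 1 of steady-state dermal DC, replicate 1 or 2 of dermal DC after DNFB or any 1 of the steady-state node DC. Between dermal DC and P2 the DNFB effects differed in 0 members by limma, and in 3 at an unadjusted p under 0.05 (0.251% of all genes called, 0.13% and 0.12% in each direction, and 0.35% of genes at the members' level).

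Other genes of these pathways, from lists that do not hold the members, were counted in the same way, beside the shares of all genes and of genes at the members' level given above for each comparison. In the mean dermal level against blood 26 of 39 other immediate early genes rose and 5 fell (79.5% called, against 19.3% of all genes and 39.2% at the members' level), with a median difference of 0.83 against 0.01 over all genes. Rgs1, a brake on chemokine receptors, rose by 4.94 ± 0.21, Errfi1, an inhibitor of EGF receptor signalling, by 3.65 ± 0.15, Maff by 3.26 ± 0.19 and Myc by 3.24 ± 0.23. In node DC against dermal DC at steady state 4 rose and 24 fell (71.8% called, against 20.3% and 41.1%), with a median of -1.25, against 0.05 over all genes. Errfi1 differed by -4.30 ± 0.19, Myc by -3.62 ± 0.29 and Phlda1 by -3.51 ± 0.38, whereas Arc, known as a neuronal immediate early gene and also expressed by migratory DC, rose by 3.89 ± 0.29. After DNFB the split was 3 rises and 19 falls (56.4%, against 17.5% and 37.4%). Node CD64+ cells against P2 gave 2 and 21 (59.0%, against 12.6% and 26.2%), with Id3 at -3.86 ± 0.33.

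Chaperone genes outside the members were mixed. Of 26, 8 rose and 7 fell in node DC against dermal DC at steady state (57.7% called, against 20.3% of all genes and 41.1% at the members' level), among them Chordc1 (1.77 ± 0.51), Hsf2 (1.41 ± 0.33), the endoplasmic reticulum chaperone gene Hspa5 (-1.75 ± 0.18) and Bag3 (-1.52 ± 0.19). Against blood, the dermal mean was higher for 6 and lower for 4 (38.5%, against 19.3% and 39.2%, and so near the share at that level), with Dnajb4 up by 2.11 ± 0.13. Bag3 fell in dermal DC after DNFB (-1.66 ± 0.19, adjusted p = 7.9e-07). Of 20 integrated stress and unfolded protein genes 9 rose and 3 fell in the dermis against blood, and 2 rose and 10 fell in node DC against dermal DC at steady state, which makes 12 of 20 called in either. Atf4, the central factor of the integrated stress response, rose by 1.52 ± 0.12 in the first and differed by -1.69 ± 0.16 in the second. The cystine transporter gene Slc7a11 rose in both, by 2.64 ± 0.36 and 1.92 ± 0.47, and the heme oxygenase gene Hmox1 differed by -4.34 ± 0.35 in node DC. Among 23 ERK and p38 pathway regulators 3 rose and 8 fell in node DC against dermal DC at steady state (47.8%, against 20.3% and 41.1%, and so near the share at that level). The p38 activator gene Map2k3 differed by -2.99 ± 0.30, the p38 gene Mapk14 by -2.76 ± 0.31 and the ERK phosphatase gene Dusp7 by -2.70 ± 0.35. In node CD64+ cells over node DC Dusp7 rose by 3.64 ± 0.35, beside Dusp6 above.

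Over the 13 group means the mean of all 37 members and the keratinocyte list mean had a correlation of 0.93, and the fibroblast list mean one of 0.72. These points share the tissue and its digestion, and the part of other skin cells in the members' levels was not tested. Over the 38 arrays' deviations from their group means the correlations were -0.04 and 0.15. In P3 the keratinocyte mean was 6.62, 7.22 and 8.11 and the member mean 9.33, 9.48 and 9.54, in the same order. In P2 after DNFB the keratinocyte mean was 7.57, 6.13 and 5.87 and the member mean 9.25, 9.07 and 9.23. Both were highest on the same array there but lowest on different arrays. The orders were opposite in steady-state P2, with 7.17, 7.79 and 7.92 beside 9.39, 9.23 and 9.19. They were so too in P5, with 6.79, 6.96 and 8.02 beside 9.47, 9.46 and 9.41. These are examples from the 13 populations. In bulk samples of sorted cells, fewer cells that carry a transcript and less of it per cell cannot be told apart.

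**Figure D5:**
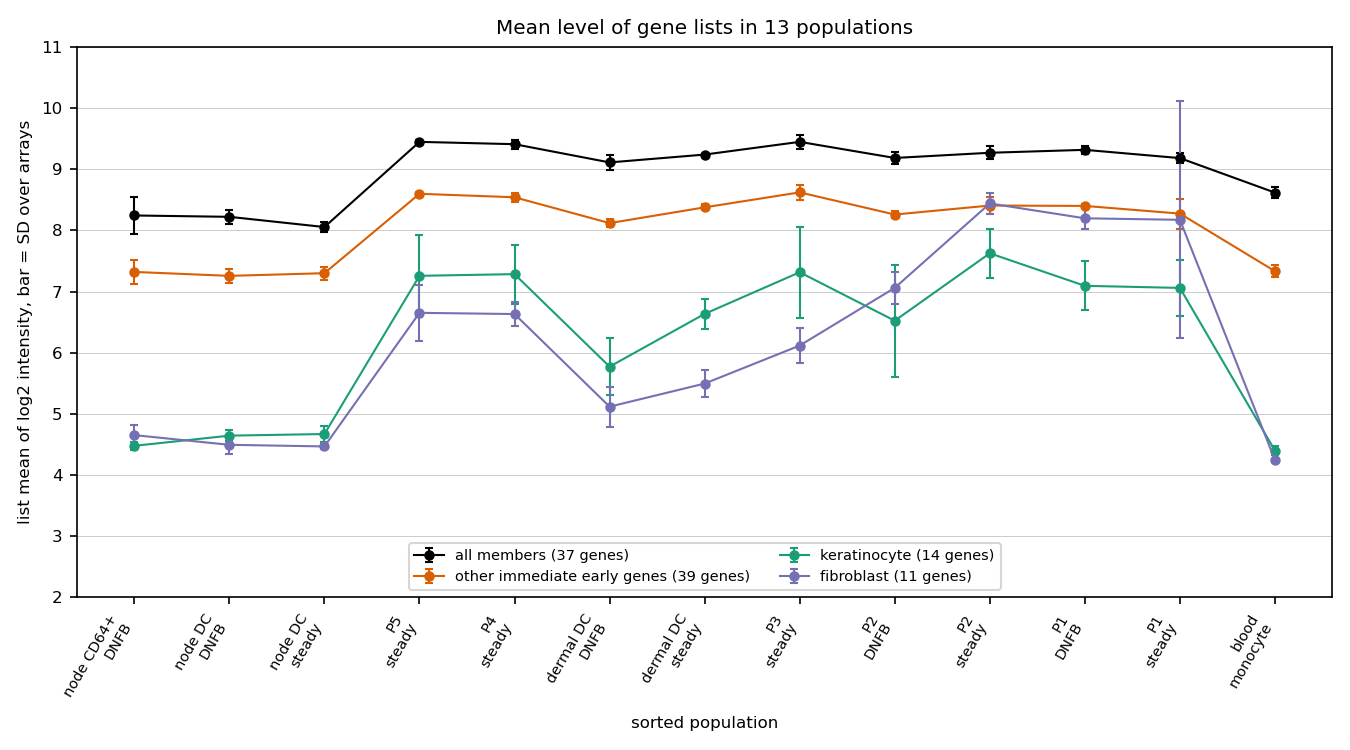
Mean log2 intensity of 4 gene lists in 13 populations, with bars for the SD over arrays. The lists are the 37 members, 39 other immediate early genes, 14 keratinocyte genes and 11 fibroblast genes. The member mean is 8.06 to 8.24 in the node, 9.11 to 9.45 in the dermis and 8.62 in blood, and the keratinocyte mean is 4.48 to 4.67 in the node and 4.40 in blood.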

How the data were processed

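RNA of 38 arrays in 13 populations was measured on Affymetrix mouse gene arrays. Each deposited value is a log2 intensity of a probe set, produced by the authors through RMA in affy (named, without a version, in the submitters' processing notes). Per the labels' protocols, 5 to 20 ng of RNA was amplified before hybridisation. Raw intensities were not used here. Of 34760 probe sets, the 21640 that name a single gene were kept (21553 matched to RefSeq). Left out were 1321 that name several genes and 11799 that name none. For 954 genes with several probe sets the brightest on average was used. The number of arrays limits precision. Signal under 4.02, the 40th percentile, was taken as low. The labels mention chip batches without saying which array was in which, so that no batch term was fitted.

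A mean per population was fitted in limma 3.58.1 (R 4.3.3), with 25 residual and 3.13 prior degrees of freedom, for 17 comparisons and 2 F tests. P-values were adjusted by Benjamini-Hochberg over 19937 genes, and a gene was called at an adjusted p under 0.05. The p-values measure the spread between pools of mice. All members are named. Values per array are given for up to 4 called members per comparison with the largest change and for the widest-ranging member of each family, and up to 4 called genes are named from each other list. Members, lists, this rule and the alternatives were chosen with earlier results of these data known. The heat shock letters searched in promoters were shortened after a longer form had matched 0 member windows. Alternatives were a replicate block, a random block, quantile normalization, median centring, removal of low values, averaging of probe sets, a variance trend with robust fitting, array weights, a fit of the compared groups only, covariates for keratinocyte and fibroblast genes, and leaving out each array. Deviations of arrays with the same replicate number in different groups had a median correlation of 0.0026 (-0.30 to 0.35). For arrays with the same number in the labels' source names it was 0.012 (-0.22 to 0.35), so that neither number was treated as pairs. Both were pooled over tissues, and pairing within a tissue was not tested on its own. At steady state replicate 1 had the lowest keratinocyte mean of its group in P1, P2, P3, P4 and P5, but the highest in dermal DC. On simulated data over 19937 genes, the genes found of 100 changed 2-fold and of 100 changed 4-fold were 62 and 96 for DNFB in P1, 73 and 99 for DNFB in dermal DC, 73 and 98 for P1 against blood and 71 and 96 for node DC against dermal DC at steady state, with 0 in the wrong direction and 6, 4, 10 and 7 false calls. Only those genes were changed in the simulation, with normal noise of the same spread in all groups. In the data 12.6% of genes were called in P1 against blood and 20.3% in node DC against dermal DC at steady state. The simulated rates therefore need not hold for the data. Plots were drawn with Python 3.11.15, pandas 2.3.3 and matplotlib 3.10.9.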

Additional observations from a re-analysis of the deposited data

Results flagged for a closer look

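In 5 members the DNFB difference was not the same in node DC and in dermal DC, by the interaction term of the limma fit. For Egr1 the node difference minus the dermal one was 2.36, made of 1.78 in node DC and -0.58 in dermal DC. For Egr2 it was 2.00 (0.74 and -1.26), for Ier3 1.25 (0.64 and -0.61), for Klf10 1.08 (0.95 and -0.13) and for Jund 0.76 (0.07 and -0.69). The adjusted p was 0.0017, 0.0024 and 0.0085 for Egr1, Egr2 and Ier3, and 0.04 for both Klf10 and Jund. Of the dermal differences Egr2 and Jund passed on their own, and of the node differences Egr1 and Klf10 did.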

How the results depend on the processing

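Of 153 member calls over 17 comparisons, 84 remained under every alternative run for them, and 1 difference turned direction: Egr3 in the dermal mean against blood was -0.023 with the keratinocyte and fibroblast covariates. With those covariates the members called were 12 in P1 against blood, 17 in the dermal mean against blood, 1 in P2 against P1, 1 for DNFB in P2, 2 for DNFB in dermal DC and 12 in node CD64+ cells against P2. With only the compared groups they were 0 in P2 against P1, in P5 against P4 and for DNFB in P1 and in P2, 1 in DC against P3 and 12 in node CD64+ cells against P2. Array weights gave 1 in P2 against P1, 2 in DC against P3, 7 and 5 for DNFB in dermal and node DC, 5 in node CD64+ cells against node DC and 9 for the difference of DNFB effects between node and dermal DC. That last count was 3 with a variance trend and robust fitting. In DC against P3 the random block, quantile normalization, the mean of probe sets and the variance trend each gave 1, and leaving out low values gave 2. Median centring gave 1 in P2 against P1, and the mean of probe sets gave 2 for DNFB in P2. The cause of these changes was not tested. The replicate block changed no count beyond 1.5 times: it gave 23 in P1 against blood, as without it.

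Leaving out 1 array gave 20 to 22 calls in P1 against blood, 25 to 29 in the dermal mean against blood, 1 in P2 against P1, 0 to 2 in P3 against P2, 0 to 1 in DC against P3, 9 to 13 in macrophages against DC, 1 in P5 against P4, 0 to 1, 1 to 3, 2 to 4 and 3 to 4 for DNFB in P1, P2, dermal DC and node DC, 20 to 22 and 20 to 23 in node DC against dermal DC at steady state and after DNFB, 2 to 4 and 16 to 21 in node CD64+ cells against node DC and against P2, and 3 to 6 for the difference of DNFB effects between node and dermal DC. Where a group kept 1 array, that array was assumed to vary like the other groups.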

Other observations

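Hspa1a and Ier5 were called higher in node DC than in dermal DC in both conditions, while Fos, Fosb, Fosl1, Fosl2, Junb, Jund and Atf3 were called lower in both. Of 16 alternatives, 9 ended the call of Ier5 at steady state, 1 that of Hspa1a at steady state and 4 that of Hspa1a after DNFB. Gadd45b was at 10.29 ± 0.16 or above in all 12 populations of skin and node, against 7.40 ± 1.04 in blood (SD, n = 3), where the arrays were 7.39, 6.37 and 8.44. Replicate 3 of the node CD64+ cells had lower values than the others of its group in many members, such as Atf3 (8.08, against 9.76 and 9.36), Nr4a3 (6.20, against 7.90 and 7.89) and Dusp2 (6.52, against 7.82 and 8.23), and a member mean of 7.91 against 8.49 and 8.33.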
